A study of Mus musculus with 4 samples.

Results

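The genes examined were 9 that carry the hormonal and nervous control of gastric acid: the ligand genes *Gast* and *Sst*, the histamine genes *Hdc* and *Slc18a2*, and the receptor genes *Cckbr*, *Hrh2*, *Sstr2*, *Chrm3* and *Ptger3*. They were chosen by function, and all 9 were found among the 46095 gene names of the count table. Bulk RNA sequencing had been done on whole stomach of C57BL/6 mice aged 12 weeks, with 2 WT samples and 2 samples of genotype *Atp4b-cre;MycOE*, called *c-Myc* transgenic here. In the transgenic mice Cre recombinase is driven by the promoter of *Atp4b*, a proton pump subunit, so that a human *c-Myc* transgene is switched on in the parietal cell lineage. The WT mice were *Myc fl/fl* littermates without Cre, and thus carried the silent transgene too. The transgenic mice were *Myc fl/+*, heterozygous for the floxed allele, while WT mice were homozygous, so the genotypes differed in allele copies as well as Cre. Each sample is whole tissue, in which fewer cells of a type and less RNA per cell cannot be told apart, and nothing in the labels says that the libraries of a genotype came from separate mice, litters or days, so p-values measure only the spread between these samples.

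In the stomach, G cells of the antrum release gastrin into the blood. Gastrin binds the CCK-B receptor on enterochromaffin-like (ECL) cells of the corpus, which make histamine with histidine decarboxylase and load it into vesicles with the transporter VMAT2. Histamine acts on H2 receptors of parietal cells and raises cAMP, while acetylcholine from the vagus acts on their M3 receptors through calcium, and both drive the proton pump. Somatostatin from D cells restrains G cells, ECL cells and parietal cells through the SSTR2 receptor, and prostaglandin E2 restrains parietal cells through the EP3 receptor.

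The pairing of names and counts needed attention before any value was read. In the deposited table the counts of both transgenic columns follow the gene names sorted by character code, with capitals before lower case, while the names themselves follow another order, and the orders share their place for 3109 names (6.75%). The transgenic counts were therefore assigned in row order to the names sorted by character code, and the WT columns stayed as they were. All 9 genes lay in rows that moved. As deposited, *Gast* stood beside the transgenic counts of *Gata1* (3 and 4 counts), *Sst* beside those of *Taf13* (900 and 1403) and *Hdc* beside those of *Hddc2* (492 and 487). *Slc18a2* stood beside *Smarcd2* (3617 and 4837), *Cckbr* beside *Ccer1* (0 and 0) and *Hrh2* beside *Hrh3* (1 and 4). *Sstr2* stood beside *Taf1a* (401 and 603), *Chrm3* beside *Chrac1* (689 and 841) and *Ptger3* beside *Rbm15* (1368 and 1539). Over the 61 rows around each gene, Pearson's r between the genotypes' mean log2(count + 1) lay between -0.31 and 0.39 as deposited and between 0.94 and 0.99 after re-sorting. These are correlations across neighbouring genes, which are not replicates. A further shift of the transgenic counts by up to 5 rows lowered r around all 9 genes, to at most 0.60.

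**Figure D1:**
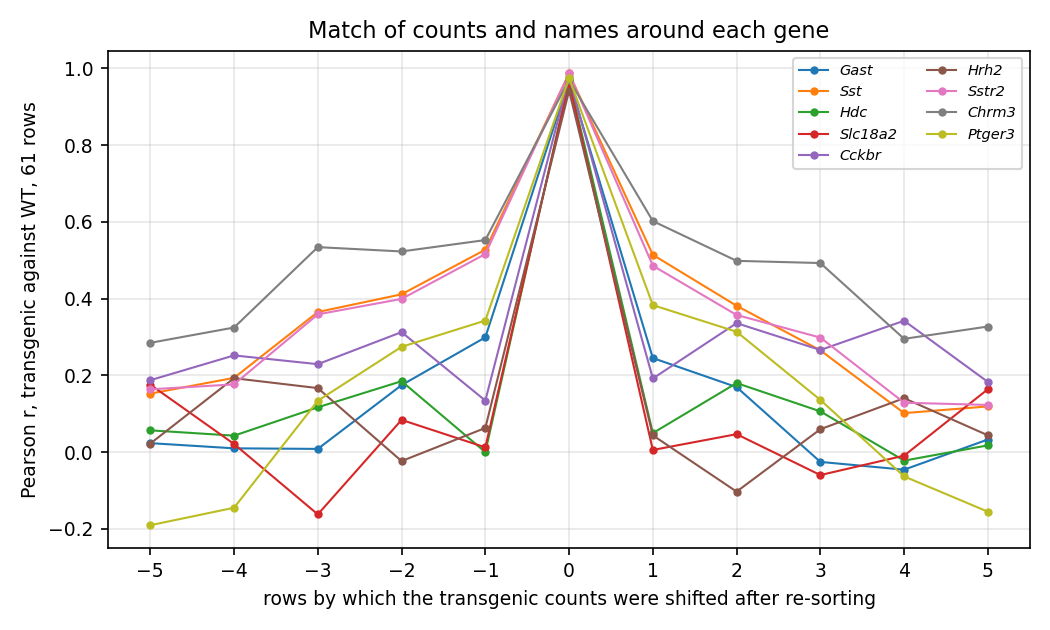
Pearson's r between the genotypes' mean log2(count + 1) over the 61 rows around each of the 9 genes (vertical axis), against the number of rows by which the transgenic counts were shifted after re-sorting (horizontal axis, 1 line per gene). Every line peaks at a shift of 0, with r between 0.94 and 0.99, and no other shift reaches more than 0.60.

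The samples held between 30260305 and 41463647 counts. The WT samples differed in sex-linked transcripts: *Xist* had 17846 counts in WT replicate 2 and between 85 and 201 in the other 3 samples, and the Y-linked *Ddx3y* had 5 counts in WT replicate 2 and between 1861 and 2623 elsewhere. Fold changes without WT replicate 2 are therefore given for the 9 genes.

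The proximal promoters of the genes in which a searched motif was found are shown here, so that a hormone gene and the receptor genes can be compared letter by letter. In the 250 bases before the RefSeq start (assembly GRCm38.p6), both strands were searched for the E-box CACGTG bound by MYC and MAX, the cAMP response element TGACGTCA, and the TATA box TATAAA. None of these motifs overlaps another in the windows found. All 9 genes matched a RefSeq window. Positions count back from the base before the start, and capitals mark the motif. The *Gast* window lies at chr11:100334157-100334406 on the plus strand, and its TATA letters are read on the opposite strand at positions -28 to -23. The *Cckbr* window lies at chr7:105425481-105425730 on the plus strand, with the E-box at -106 to -101. The *Sstr2* window lies at chr11:113619077-113619326 on the plus strand, with the cAMP response element at -58 to -51. For *Sst*, on the minus strand, only the 30 bases at chr16:23890874-23890903 around the cAMP response element at -48 to -41 are shown. The GENCODE positions given below start *Sst* and *Hdc* further upstream than RefSeq does. By those positions the *Sst* stretch and the whole *Hdc* window lie inside the gene.
Gast: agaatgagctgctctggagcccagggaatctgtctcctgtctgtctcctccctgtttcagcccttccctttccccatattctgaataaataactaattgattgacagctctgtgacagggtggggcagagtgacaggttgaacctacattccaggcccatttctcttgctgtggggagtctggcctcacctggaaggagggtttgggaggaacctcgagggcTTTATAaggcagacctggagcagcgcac
Cckbr: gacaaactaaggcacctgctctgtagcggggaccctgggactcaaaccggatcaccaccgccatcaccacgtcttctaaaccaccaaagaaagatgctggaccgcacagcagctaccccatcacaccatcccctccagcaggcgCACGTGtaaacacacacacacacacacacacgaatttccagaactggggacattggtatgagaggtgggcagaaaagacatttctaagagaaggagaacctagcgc
Sstr2: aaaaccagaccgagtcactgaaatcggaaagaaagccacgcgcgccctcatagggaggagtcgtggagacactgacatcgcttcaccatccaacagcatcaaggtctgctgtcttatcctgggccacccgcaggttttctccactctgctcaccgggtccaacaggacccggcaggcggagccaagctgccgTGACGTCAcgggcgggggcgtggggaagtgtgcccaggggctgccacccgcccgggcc
Sst: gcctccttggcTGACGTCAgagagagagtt
The cAMP response element thus stood in the windows of the ligand *Sst* and of its receptor *Sstr2*, and in 1.62% of all 27025 windows (2.61% of the 12326 windows of tested genes). The E-box stood in 6.05% of all windows (7.83% of those of tested genes) and, of the 9 genes, in *Cckbr*. The TATA letters stood in 13.0% of all windows (7.5% of those of tested genes) and, of the 9 genes, in *Gast*. *Hdc*, *Slc18a2*, *Hrh2*, *Chrm3* and *Ptger3* held none of the 3 motifs, which says only that these letters are not in those 250 bases.

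All 9 genes had lower normalized levels in both transgenic samples than in both WT samples, where 31.5% of the 17643 tested genes showed that order. With edgeR's quasi-likelihood test, 6 of the 9 passed as lower, namely *Sst*, *Hdc*, *Slc18a2*, *Cckbr*, *Hrh2* and *Sstr2*. Over all tested genes, 5.08% were called lower and 5.65% higher, a call being a Benjamini-Hochberg adjusted p under 0.05 together with a change above 1.5-fold in either direction. *Gast*, *Ptger3* and *Chrm3* were not called. The median log2 fold change was -1.94 over the 9 genes and 0.01 over all tested genes. The H2 receptor gene had the largest difference of the 9 and the M3 receptor gene the smallest. Levels are given in CPM after TMM scaling, which sets each count against the effective depth of its sample, with the SD over 2 samples.

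**Figure D2:**
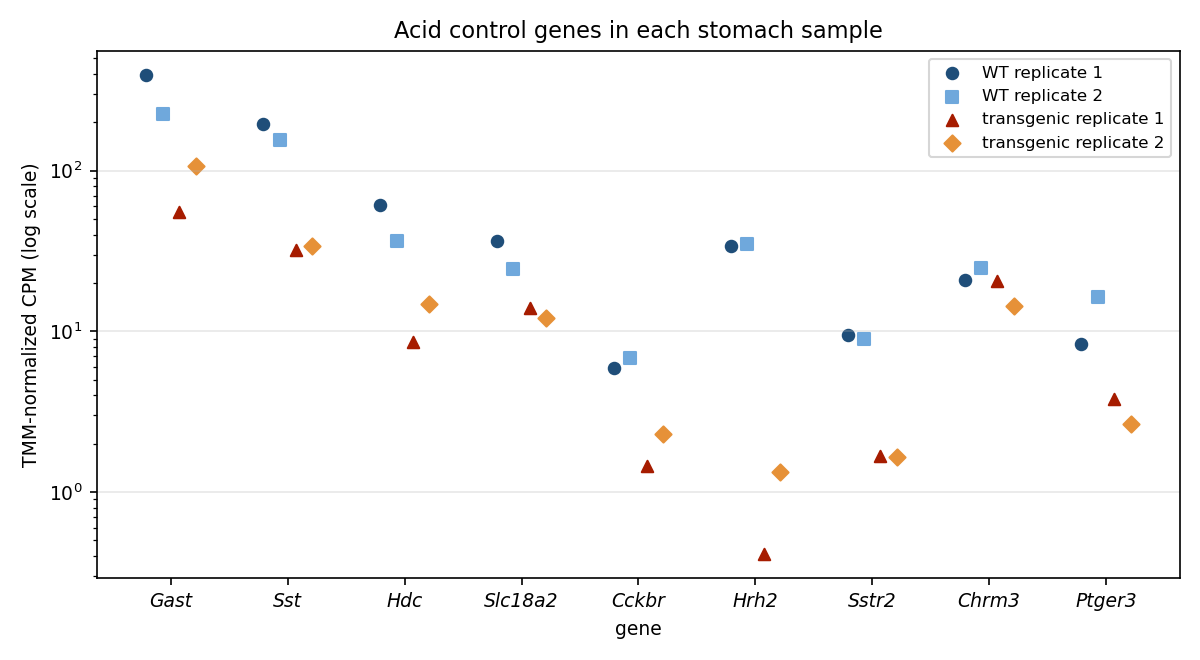
TMM-normalized CPM of the 9 genes (vertical axis, log scale) in each of the 4 samples, with 1 point per sample. Both transgenic points lie below both WT points for every gene, far apart for *Hrh2* and close together for *Chrm3*, where transgenic replicate 1 (20.5) nearly meets WT replicate 1 (20.8).

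*Gast*, which encodes the hormone gastrin (chr11:100334407-100336996 in GRCm38, plus strand, 3 exons), had 396 and 224 CPM in the WT samples and 55.0 and 106 CPM in the transgenic samples, from 13281, 6258, 1866 and 4749 counts. WT replicate 1 was the highest and transgenic replicate 1 the lowest, and the spread within each genotype was wide. The mean was 310 ± 121 CPM in WT and 80.7 ± 36.3 CPM in transgenic mice, or 26.0% of WT. The log2 fold change of -1.94 ± 0.44 (SE) did not pass (edgeR adjusted p = 0.0602, unadjusted p = 0.00966), although its 95% interval ran from -3.13 to -0.75. It passed with DESeq2, without the filter on low counts and without transgenic replicate 2.

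*Sst*, the gene of the inhibitory hormone somatostatin (chr16:23889573-23890958, minus strand, 2 exons), had 196 and 154 CPM in WT and 31.9 and 34.1 CPM in transgenic mice, from 6576, 4302, 1082 and 1524 counts. The transgenic samples lay close together and far below WT. Its level was 18.9% of WT, with a log2 fold change of -2.41 ± 0.15 and an edgeR adjusted p of 0.0131. The gene of the acid-stimulating hormone and that of its inhibitor thus both had lower levels, and only the latter passed the test. The difference between their fold changes was not tested.

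*Hdc* encodes histidine decarboxylase, the enzyme that makes histamine (chr2:126593667-126619299, minus strand, 12 exon blocks). It had 61.3 and 36.5 CPM in WT and 8.61 and 14.9 CPM in transgenic mice, from 2058, 1017, 292 and 665 counts. The groups did not overlap, and as for *Gast*, WT replicate 1 was the highest and transgenic replicate 1 the lowest. It fell by 2.06 on the log2 scale (SE 0.39, edgeR adjusted p = 0.0447).

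*Slc18a2* encodes the vesicular monoamine transporter VMAT2, which packs histamine into ECL cell vesicles and also serves monoamine neurons and mast cells (chr19:59260896-59296012, plus strand, 11 exon blocks). It had 36.5 and 24.3 CPM in WT and 13.9 and 12.1 CPM in transgenic mice, from 1225, 679, 471 and 542 counts. Its transgenic level was 42.8% of WT, the smallest fall among the 6 called genes, with a log2 fold change of -1.23 ± 0.24 and an edgeR adjusted p of 0.0467. It did not pass when scaled by library size, nor with any 1 of the 4 samples left out. An antisense gene, *Gm29261*, overlaps it on the other strand, and reads of the pair cannot be told apart without a stranded count.

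Among the stimulatory receptors, *Hrh2*, the histamine H2 receptor of parietal cells (chr13:54192129-54236180, plus strand, 5 exon blocks), had 33.9 and 35.2 CPM in WT and 0.413 and 1.34 CPM in transgenic mice. The WT samples were nearly equal, while the transgenic values rested on 14 and 60 counts against 1138 and 981 in WT. Its level was 2.61% of WT, a 38.4-fold difference, with a log2 fold change of -5.26 ± 0.58 and an edgeR adjusted p of 0.0213. Only 0.238% of tested genes had a lower log2 fold change. Leaving out transgenic replicate 2 made the difference 82.8-fold, and leaving out transgenic replicate 1 made it 25.6-fold. The antisense gene *Gm16578*, on the opposite strand of *Hrh2*, had 0 counts in all 4 samples.

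*Cckbr*, the CCK-B receptor that binds gastrin on ECL and parietal cells (chr7:105425731-105470898, plus strand, 6 exon blocks), had 5.93 and 6.81 CPM in WT and 1.45 and 2.31 CPM in transgenic mice, from 199, 190, 49 and 103 counts. The genotypes were well separated. The log2 fold change was -1.76 ± 0.34 and the level 29.6% of WT (edgeR adjusted p = 0.0461).

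*Chrm3*, the muscarinic M3 receptor of parietal cells and smooth muscle (chr13:9875486-10360847, minus strand), had 20.8 and 24.7 CPM in WT and 20.5 and 14.4 CPM in transgenic mice, from 698, 688, 695 and 645 counts. Transgenic replicate 1 was almost level with WT replicate 1. The log2 fold change of -0.38 ± 0.22 was not called (edgeR adjusted p = 0.301), and its 95% interval ran from -0.98 to 0.22. Of tested genes, 26.0% had a lower log2 fold change. The antisense gene *Gm26861* and the pseudogene *Gm47406* lie on its other strand, with the same limit as for *Slc18a2*. Its span also overlaps *Gm47411*, *Gm47405*, *9330159N22Rik* and *Gm47404* on its own strand, which strand alone does not separate.

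Of the inhibitory receptors, *Sstr2*, the somatostatin receptor of ECL, G and parietal cells (chr11:113619342-113626028, plus strand, 2 exons), had 9.51 and 9.0 CPM in WT and 1.68 and 1.66 CPM in transgenic mice. Replicates were close in both genotypes, from 319, 251, 57 and 74 counts. It fell to 18.1% of WT, by 2.47 on the log2 scale (SE 0.22, edgeR adjusted p = 0.0188). *Slc39a11*, a zinc transporter gene on the opposite strand, overlaps it and had between 6514 and 8723 counts in all samples, so a share of the *Sstr2* counts may be its reads if the counting ignored strand.

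*Ptger3*, the prostaglandin EP3 receptor (chr3:157566892-157645888, plus strand, 4 exon blocks), had 8.40 and 16.4 CPM in WT and 3.80 and 2.66 CPM in transgenic mice, from 282, 458, 129 and 119 counts. Here WT replicate 2 was the higher of the WT samples, the reverse of *Gast* and *Hdc*. The log2 fold change of -1.94 ± 0.42 was close to the threshold and not called (edgeR adjusted p = 0.0557, unadjusted p = 0.00823), and it too passed with DESeq2 and without the filter on low counts.

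**Figure D3:**
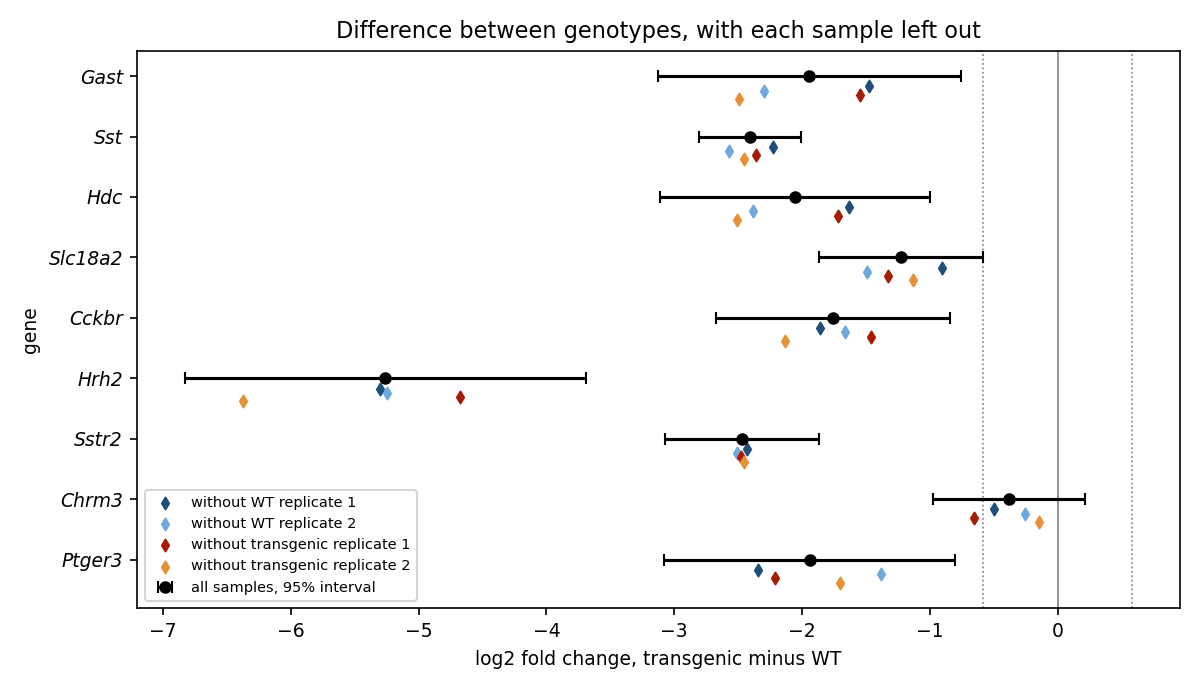
Log2 fold change of the 9 genes, transgenic minus WT (horizontal axis), with its 95% interval (black), and the fold change with each sample left out (coloured diamonds). Dotted lines mark a 1.5-fold change in either direction. All points lie below 0, while the interval of *Chrm3* crosses it, and the points of *Hrh2* without a transgenic sample range from -6.37 to -4.68.

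Every fold change kept its direction with any 1 sample left out. Without WT replicate 2, the sample with the other sex-linked pattern, the log2 fold changes were -2.30 for *Gast*, -2.57 for *Sst*, -2.39 for *Hdc*, -1.49 for *Slc18a2*, -1.66 for *Cckbr*, -5.25 for *Hrh2*, -2.51 for *Sstr2*, -0.26 for *Chrm3* and -1.38 for *Ptger3*. In that edgeR fit, with 1 WT sample left, no gene of the 18615 tested passed the adjusted threshold, nor did any of the 18333 tested without WT replicate 1. The unadjusted p was then under 0.05 for 8 and 7 of the 9 genes, respectively. Without transgenic replicate 1, 1613 of 18580 tested genes were called, *Sst*, *Hrh2* and *Sstr2* of the 9 among them. Without transgenic replicate 2, 2470 of 18289 were called, 6 of the 9 among them, with *Gast* gained and *Slc18a2* lost. In the table as deposited, where names and transgenic counts do not match, 84.1% of tested genes were called, 7 of the 9 genes among them, and *Slc18a2*, *Sstr2* and *Ptger3* had the opposite sign.

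Comparing levels between genes requires a scale per length, here normalized CPM per kb of exons. In WT, *Gast* (674 CPM per kb) and *Sst* (243) were far above the rest, followed by *Hdc* (7.65), *Slc18a2* (5.82), *Hrh2* (5.82), *Sstr2* (4.32), *Chrm3* (3.64), *Cckbr* (2.23) and *Ptger3* (2.18). Ranges over the 2 WT samples overlapped for *Hdc*, *Slc18a2* and *Hrh2*, and again for *Cckbr* and *Ptger3*. In transgenic mice *Gast* (175 CPM per kb) and *Sst* (45.8) stayed at the head, and *Chrm3* (2.79) came next, then *Slc18a2* (2.49), *Hdc* (1.84), *Sstr2* (0.779), *Cckbr* (0.655), *Ptger3* (0.569) and *Hrh2* (0.148). Neighbours whose ranges overlapped in transgenic mice were *Chrm3* and *Slc18a2*, *Slc18a2* and *Hdc*, *Sstr2* and *Cckbr*, and *Cckbr* and *Ptger3*. *Hrh2* thus went from the level of *Hdc* and *Slc18a2* in WT to the lowest of the 9, and *Chrm3* from below *Hrh2* to above it.

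The wider circle of hormones and receptors that bear on acid secretion held 45 genes, of which 37 were tested, 7 were called lower, 1 was called higher, and the median log2 fold change was -0.73. *Ghrl*, the gene of the hunger hormone ghrelin made by X/A-like endocrine cells, went from 19608 and 12431 WT counts to 4568 and 5982 transgenic counts, a fall by 1.94 on the log2 scale (SE 0.16, edgeR adjusted p = 0.0175). *Cckar*, the CCK-A receptor through which cholecystokinin acts on D cells and chief cells, went from 2062 and 1891 WT counts to 284 and 283 transgenic counts, a fall by 3.14 (SE 0.18, edgeR adjusted p = 0.0107). *Calcrl*, part of the receptor for the neuropeptide CGRP, fell by 1.47 (edgeR adjusted p = 0.0195), the secretin receptor *Sctr* fell by 0.93 (0.0378) and the prostaglandin receptor *Ptger1* fell by 0.99 (0.0398). The remaining called genes, named after their values were seen, were the calcium-sensing receptor *Casr* of G cells and the proglucagon gene *Gcg*, which fell by 2.14 and 1.45, respectively.

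*Adcyap1r1*, the PACAP receptor of ECL cells, was the only gene of this circle called higher. When scaled by library size, 2 were called higher, with *Chat*, the enzyme that makes acetylcholine, the other, and 9 lower. The level of *Adcyap1r1* was 51.2 and 56.3 CPM in WT and 99.5 and 110 CPM in transgenic mice, with no overlap. The log2 fold change was 0.96 ± 0.10 (edgeR adjusted p = 0.0201).

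**Figure D4:**
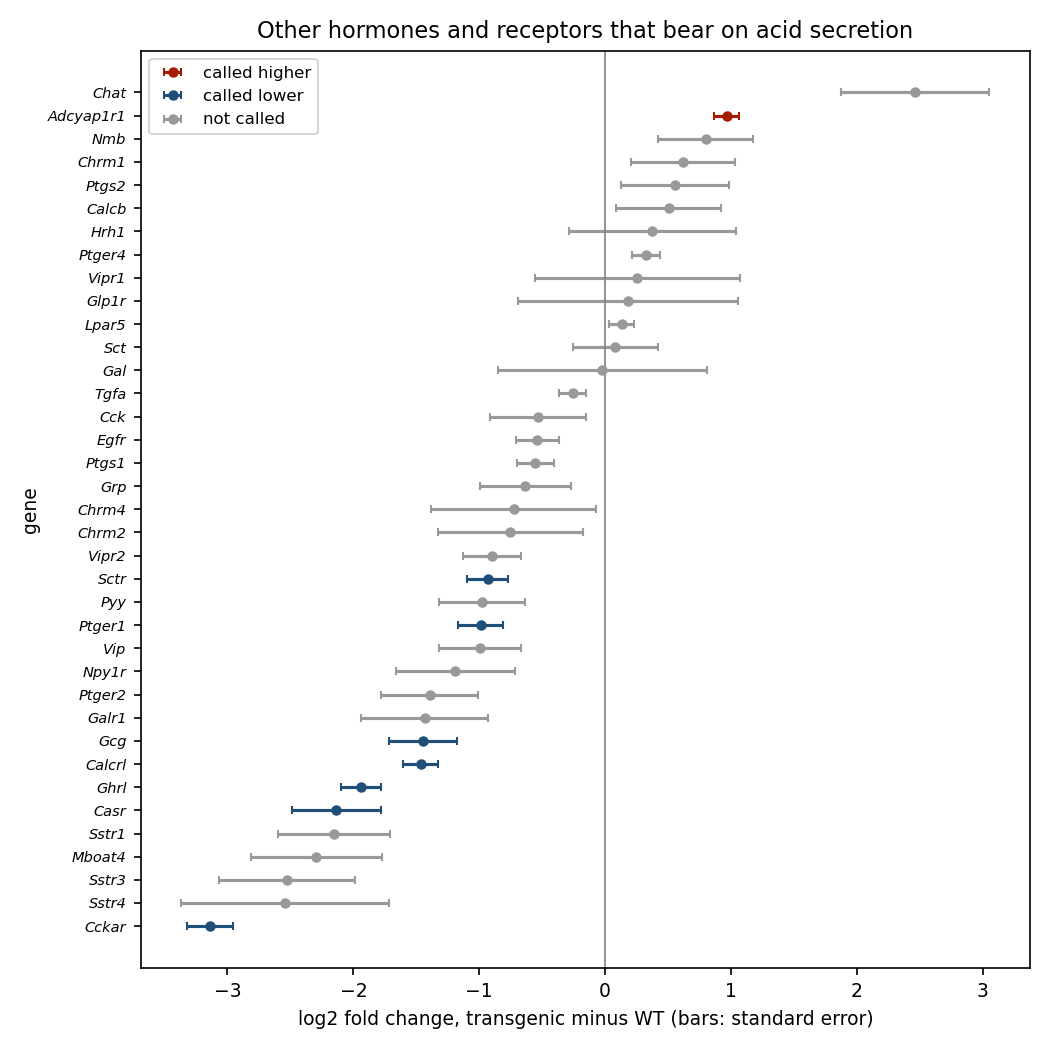
Log2 fold change with its standard error (horizontal axis) of the 37 tested genes for other hormones and receptors that bear on acid secretion, ordered by fold change and coloured by call. *Adcyap1r1* (0.96) is the only one called higher with TMM scaling (*Chat* joins it with library size), and *Cckar* (-3.14) has the lowest value.

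Of 9 genes that break down, take up or transport histamine, or amino acids in the case of *Slc7a5*, 8 were tested. *Maob*, a monoamine oxidase that acts on methylated histamine, fell by 1.12 on the log2 scale (SE 0.13, edgeR adjusted p = 0.0232), no other passed, and the median was -0.14. When scaled by library size the median was 0.09 and the amino acid transporter gene *Slc7a5* was called higher. Of 25 genes for the G proteins, cyclases, kinases and calcium channels that pass on these receptors' signals, all tested, *Itpr2*, an IP3-gated calcium channel, fell by 1.69 (SE 0.28, edgeR adjusted p = 0.0369) and no other passed, except *Prkar2a* as higher when scaled by library size. The median of these 25 was -0.22 (0.01 when scaled by library size), against -1.94 for the ligand, histamine and receptor genes.

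Markers of the cells that hold these genes moved as well. Of 14 parietal cell markers, 11 were called lower, with a median log2 fold change of -3.49. The proton pump subunits *Atp4a* and *Atp4b* fell by 5.59 and 5.82 (edgeR adjusted p = 0.00884 and 0.00635), and *Clic6*, a chloride channel protein of parietal cells, fell by 3.82 (0.00897). The summed parietal level was 16720 and 17100 CPM in WT and 3436 and 3303 CPM in transgenic mice. Much of the transgenic sum came from list members that were not called, such as *Car2*, a carbonic anhydrase, with 1398 and 1300 CPM, so the sum fell less than the proton pump genes. Of 17 endocrine granule and cell fate markers, 9 were called lower (8 when scaled by library size) and none higher, with a median of -1.53. *Chga*, a granule protein of gastric endocrine cells, fell by 1.98 (SE 0.33, edgeR adjusted p = 0.0356), *Chgb* fell by 1.73 (0.0233) and the prohormone convertase *Pcsk1* fell by 2.33 (0.0198). Their summed level was 1611 and 972 CPM in WT and 399 and 479 CPM in transgenic mice, with WT replicate 1 the higher WT sample, as for *Gast*, *Sst*, *Hdc* and *Slc18a2*. The part of these markers in the results was not tested.

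Histamine is also made by mast cells, and most of their markers went the other way. Of 12 mast cell markers, 7 were called higher and none lower, with a median log2 fold change of 1.72. The number called higher was 8 when scaled by library size and 6 with the size factors of DESeq2. Among those not called, *Kit* (-0.15) was lower in both transgenic samples and *Gata2* (0.07) overlapped between genotypes. The chymase *Mcpt1* went from 40 and 167 WT counts to 2728 and 4212 transgenic counts, a log2 fold change of 4.62 ± 0.79 (edgeR adjusted p = 0.0378) that was 3.87 without WT replicate 1 and 6.19 without WT replicate 2. *Mcpt2* was higher by 2.93 (0.0287), or by 3.60 without WT replicate 2, and the tryptase *Tpsb2* by 1.98 (0.0421). The summed mast cell level was 88.5 and 118 CPM in WT and 290 and 285 CPM in transgenic mice, and *Hdc*, which both cell types share, was lower beside it. The 1 tested basophil marker was not called.

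Other cell types were read for the same reason. All 4 tested chief cell markers were called lower (median -5.22), among them the pepsinogen gene *Pgc* (-6.00), *Gif* (-4.44) and *Chia1* (-8.81), as were 4 (3 when scaled by library size) of 6 surface and neck mucous markers (median -1.48), among them *Gkn2* (-1.88), *Gkn1* (-1.73) and the mucin *Muc5ac* (-2.46), all genes of surface cells. The neck cell genes *Muc6* (0.13) and *Tff2* (0.53) were not called, and their genotypes overlapped. Both changed sign without transgenic replicate 1 (-0.45 and -0.26, respectively). All 4 tested pancreatic acinar markers were called lower (median -7.29), with summed levels of 10200 and 8938 CPM in WT and 144 and 168 CPM in transgenic mice. The digestive enzyme genes *Pla2g1b* (-8.84), *Clps* (-7.13) and *Cela1* (-0.76, not called when scaled by library size) were among them, and *Pla2g1b* alone made up 9805 and 8607 CPM of the WT sums. Of the same list, *Cpa1* and *Prss2* had 0 counts in all samples, and of the islet markers *Ins1* and *Ins2* had 0 counts in all samples. Antral markers, from the region that holds G cells, summed to 2182 and 2763 CPM in WT and to 5863 and 2078 CPM in transgenic mice, with *Nkx6-3* called lower (-1.16, edgeR adjusted p = 0.0176) among the 3. Nearly all of these sums was *Gkn3*, with 5803 and 2035 CPM in transgenic mice, while *Pdx1* and *Nkx6-3* were below WT in both transgenic samples. For smooth muscle, which also carries *Chrm3*, no marker of 9 was called, and the sums were 7187 and 4617 CPM in WT and 2358 and 5050 CPM in transgenic mice. Forestomach squamous markers summed to 2026 and 1123 CPM in WT and to 670 and 3535 CPM in transgenic mice, with none of 6 called (*Ivl* was called higher when scaled by library size). Of enteric neuron markers 1 of 8 was called lower (*Ret*, -0.97), of leukocyte markers 3 of 8 (*Csf1r* -1.56, *Adgre1* -2.27, *Itgam* -1.76), and of intestinal markers none of 5, with sums of 497 and 340 CPM in WT and 491 and 224 CPM in transgenic mice. Gastric markers were thus present in all samples, while the summed levels of antral (mostly *Gkn3*), forestomach, intestinal and muscle markers differed between the transgenic samples.

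**Figure D5:**
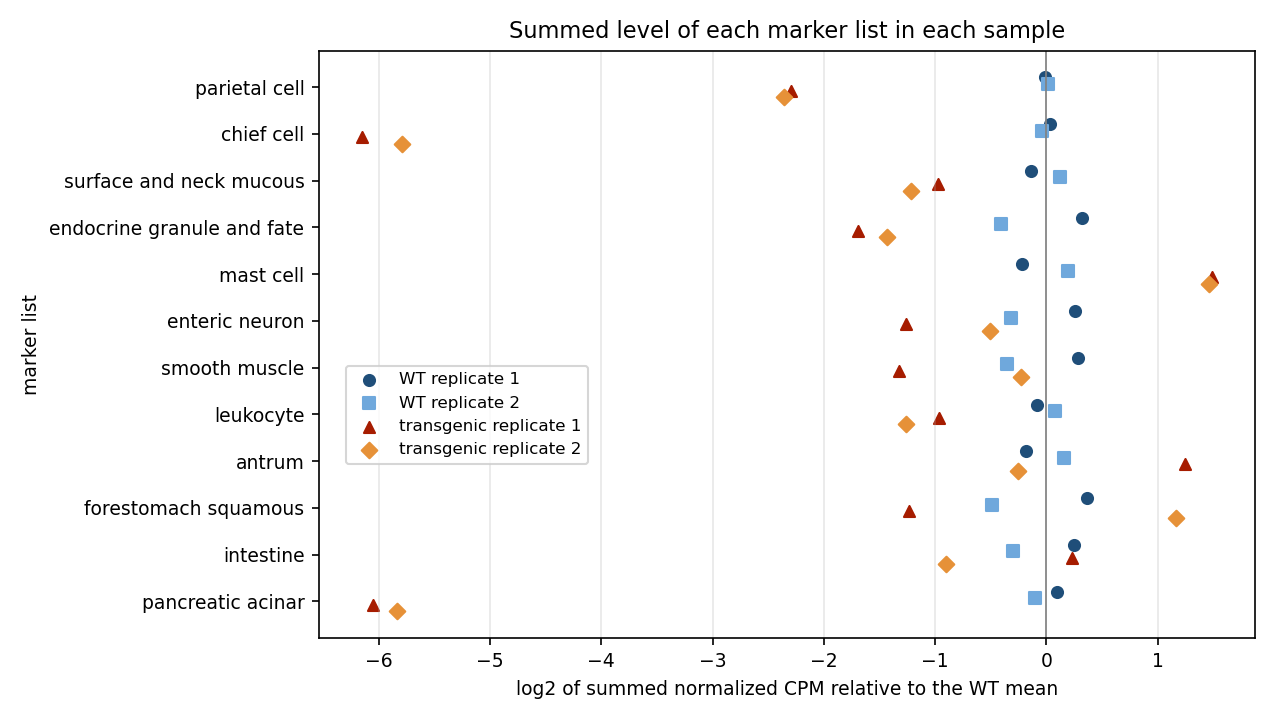
Summed TMM-normalized CPM of each marker list in each sample, as log2 relative to the mean of the WT samples (horizontal axis). Parietal, chief (mostly *Pgc*), endocrine and pancreatic acinar (mostly *Pla2g1b*) sums are lower in both transgenic samples and the mast cell sum is higher, while antral (mostly *Gkn3*), forestomach, intestinal and muscle sums differ between the transgenic samples.

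Counts were also set against those of a marker within each sample, in ratios chosen after the values were seen. *Hrh2* had 4.41 and 4.42 counts per 1000 of *Atp4a* in WT and 2.98 and 7.18 in transgenic mice, so the genotypes overlapped, as they did against *Atp4b*. Against the same gene, *Chrm3* had 2.71 and 3.10 counts per 1000 in WT and 148 and 77.2 in transgenic mice, and *Cckbr* had 0.772 and 0.857 in WT and 10.4 and 12.3 in transgenic mice. The fall of *Hrh2* was thus close in size to that of the proton pump gene, and those of *Cckbr* and *Chrm3* were smaller than it. Against *Myh11*, a myosin of smooth muscle, *Chrm3* had 7.89 and 14.6 counts per 1000 in WT and 26.3 and 8.04 in transgenic mice, and the genotypes overlapped.

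Against *Chga*, the ratios of *Gast*, *Hdc*, *Cckbr* and *Ptger3* overlapped between genotypes, those of *Sst* and *Sstr2* were lower in both transgenic samples, and that of *Slc18a2* was higher. *Gast* had 445 and 469 counts per 1000 of *Chga* in WT and 302 and 641 in transgenic mice, and *Hdc* had 68.9 and 76.2 in WT and 47.3 and 89.8 in transgenic mice. *Sst* had 220 and 322 in WT and 175 and 206 in transgenic mice, and *Sstr2* had 10.7 and 18.8 in WT and 9.22 and 10 in transgenic mice. The ratio of *Cckbr* was 6.66 and 14.2 in WT and 7.93 and 13.9 in transgenic mice, and that of *Ptger3* was 9.44 and 34.3 in WT and 20.9 and 16.1 in transgenic mice, so the WT samples differed widely for both. *Slc18a2* had 41.0 and 50.9 in WT and 76.2 and 73.2 in transgenic mice. *Hdc* had 1680 and 1500 counts per 1000 of *Slc18a2* in WT and 620 and 1230 in transgenic mice, so the enzyme was lower relative to the transporter in both transgenic samples. Against *Cpa3*, a mast cell protease, *Hdc* had 18100 and 5270 counts per 1000 in WT and 577 and 977 in transgenic mice. *Gast* had 2020 and 1450 counts per 1000 of *Sst* in WT and 1720 and 3120 in transgenic mice, and the genotypes overlapped.

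For each called gene, the genes whose 4 sample values were most alike were sought among the 13746 tested genes whose average log2 CPM reached 1, by the root mean square difference of log2 levels centred on their mean. Over only 4 samples such likeness is a description of these samples. *Sst* was nearest to *Cxcl12* (0.03), *Pcsk1* (0.09) and *Slc25a34* (0.14). *Slc18a2* was nearest to *Thsd7a* (0.05) and to the endocrine genes *Neurod1* (0.08) and *Scg2* (0.08). *Hdc* was nearest to *Cts6* (0.10), *Kif5a* (0.11) and *Gm2115* (0.17), and *Cckbr* to *Gkn1* (0.02), *Hmcn1* (0.04) and *Acacb* (0.06). *Sstr2* was nearest to *Siglec1* (0.06), *Aldh6a1* (0.07) and *Cxcl12* (0.07). *Hrh2* had no such close match, its nearest being *Pld6* (0.25), *Tmprss9* (0.29) and *1810010D01Rik* (0.36).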

How the data were processed

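Total RNA of whole stomach was sequenced with standard Illumina libraries. The authors deposited raw counts per gene name, without normalization, and per the labels the reads were aligned with HISAT2 to mm10. The counting tool, annotation and strand setting are not given in the sources used here. The transgenic counts were re-sorted as described, using names and no count value. Genes were tested in edgeR 4.0.16 (R 4.3.3) by a quasi-likelihood fit without covariates, after TMM normalization and filterByExpr on genotype, over all 17643 genes that passed the filter, as all 9 members did. DESeq2 1.42.0, other scalings, filters, thresholds, a block on the replicate number and leaving out each sample were alternatives. SE is the absolute log2 fold change over the square root of F. The tests were checked on simulated counts. Positions and exon lengths are from GENCODE M21 on GRCm38, the build that mm10 names. The members, lists and tests were chosen with earlier results of these data known. From each pathway list up to 6 called genes by average level were named, and from each marker list up to 3. The transgene is not reported here.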

Additional observations from a re-analysis of the deposited data

How the results depend on the processing

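The 1892 genes called (996 higher, 896 lower) became 18580 in the table as deposited, 3234 with DESeq2, 3011 with library size in place of TMM, 1113 with an absolute log2 fold change above 1, and 0 to 2470 with 1 sample left out. Both counts of 0, without WT replicate 1 and without WT replicate 2, are from edgeR, where 3554 and 3410 genes had an unadjusted p under 0.05. Library size moved the median of all genes from 0.01 to 0.23 and the calls to 2272 higher and 739 lower. Of the 9 genes, 6 were called, 0 to 6 with 1 sample left out (0 without either WT sample, 3 without transgenic replicate 1), 8 with DESeq2, 8 without a filter, 5 with library size and 7 as deposited. As deposited, the log2 fold changes were -11.64 for *Gast*, 1.88 for *Slc18a2*, 0.52 for *Sstr2* and 1.65 for *Ptger3*, the last 3 reversed because the transgenic counts there belong to other names. *Gast* and *Ptger3* passed with DESeq2 (-1.95 and -1.95) and without a filter (-1.93 and -1.93), and *Gast* also without transgenic replicate 2, while *Slc18a2* did not with library size (-1.0). The ranges with 1 sample left out were -2.49 to -1.48 for *Gast*, -2.57 to -2.23 for *Sst*, -2.51 to -1.63 for *Hdc*, -1.49 to -0.90 for *Slc18a2*, -2.14 to -1.46 for *Cckbr*, -6.37 to -4.68 for *Hrh2* and -2.51 to -2.43 for *Sstr2*. Apart from the deposited table, no fold change of the 9 genes reversed under the other alternatives. Of these 90 fold changes, 63 kept their side of the threshold, 22 lost a call and 5 gained one. The cause of the other changes was not tested.

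The labels do not say whether a replicate number marks a shared litter or day, so same-numbered samples were not taken as pairs. Across the 17643 tested genes, the deviations of same-numbered samples from their genotype means correlated at 0.0674. With 2 samples per genotype, that value cannot show whether a litter or day was shared. With a replicate block, 114 genes and 1 of the 9 (*Sst*) were called, and the log2 fold changes no longer past the threshold were -2.06 for *Hdc*, -1.20 for *Slc18a2*, -1.79 for *Cckbr*, -5.42 for *Hrh2* and -2.47 for *Sstr2*.

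Transgenic counts were fewest for *Hrh2* (14 and 60), *Sstr2* (57 and 74) and *Cckbr* (49 and 103).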
